A study of Mus musculus with 8 samples.

Results

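The comparison set mouse embryonic stem cells grown on dishes coated with laminin-511 against the same line grown on gelatin, both in the medium that the labels call Std. It was chosen by sample title and takes 4 of the 8 libraries of the series, 2 titled LM511_std and 2 titled gelatin_std. The cells were Bruce 4, a male embryonic stem cell line of the C57BL/6J strain, and each pair of replicates comes from this 1 line. They were kept for 2 weeks on their coating before RNA was taken. The labels write the coating both as LM511 and as LN511, and LN511 is used below. The composition of Std is not given in the sources used here. The other 4 libraries crossed the same coatings with 2i, a medium with inhibitors of MEK and GSK3 that keeps the cells in a naive state. They enter below through the filter and the rule on zeros that decided which genes were tested, through the shared estimate of spread, and in the comparison of the effect of the coating between media. The design text calls the samples of a group biological replicates, and the labels do not say what separates them, so p-values measure the spread between these samples, which may be partly technical.

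Laminin-511 is a cross-shaped trimer of basement membranes and is laid down by the embryo itself from early stages. Cells bind it through laminin-binding integrins and co-receptors such as Lutheran (Bcam), while gelatin, a denatured collagen, offers other and weaker adhesion sites. Integrin engagement recruits a plaque of linker proteins, the focal adhesion, which anchors actin cables. A rise in polymerised actin releases the coactivator MRTF to act with the transcription factor SRF, and spreading and tension bring the coactivator YAP to TEAD factors, so genes of matrix, adhesion and cytoskeleton are standard readouts of a change of substrate.

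Expression is in FPKM, which divides the fragments of a transcript by its length and by the depth of the library. A gene's value is the sum over its RefSeq transcripts, and no read counts are in the tables used. If the smallest steps between low values are single fragments, the 4 Std libraries held 2203234 to 2617454 assigned fragments, within 1.19-fold of one another, and 1 fragment on a transcript of 2000 bases was worth 0.19 to 0.23 FPKM. Across genes, the Pearson correlation of log2(FPKM + 1) was 0.964 between the LN511 replicates, 0.959 between the gelatin replicates and 0.947 between libraries of different coating (0.9466 to 0.9475). Genes are not independent replicates in these correlations. The cells carried the stem cell factors Pou5f1 at 949 to 1113 FPKM and Sox2 at 120 to 132 FPKM in the 4 libraries. A group's level is given as a mean ± SD of its 2 libraries. Differences are log2(FPKM + 1) on LN511 minus that on gelatin, with a standard error (SE), and they understate the change of low genes. In Tgm1, Ilk, Fgf5 and Fkbp6 among the named genes the highest transcript differed between Std libraries. "Called" means a limma adjusted p under 0.05 over all 10278 tested genes.

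A small share of the genes was called between the coatings, more of them higher than lower on LN511. The largest rises on the log2(FPKM + 1) scale included those of keratins, an annexin and matricellular genes. Of 10278 tested genes, 216 were called (2.1%), of which 158 were higher on LN511 (1.54%) and 58 lower (0.564%). Before adjustment, 1629 genes had a limma p under 0.05 (15.8%), 1005 higher and 624 lower. This share is the background for the unadjusted counts of the lists below. A gene that was not called may still differ, as each coating had 2 libraries. The called differences ran from -2.95 to 3.93 on the log2 scale, and 101 of the higher and 33 of the lower genes moved by 1 or more. The median over all tested genes was 0.05. All 216 called genes had no overlap between coatings, a pattern that 28.7% of all tested genes showed in the higher direction and 20.7% in the lower direction. In 31 called genes at least 1 Std library was listed at 0, and in 20 a whole Std group was. A 0 in these files can be a failed estimate. With 1 library left out, the count was 9 without LN511 replicate 1, 18 without LN511 replicate 2, 39 without gelatin replicate 1 and 41 without gelatin replicate 2. It was 75 and 74 without gelatin 2i replicates 1 and 2, and 199 and 197 without LN511 2i replicates 1 and 2. No sign could change in these fits, since none of the 216 overlapped between coatings. The fit to the 4 Std libraries alone called 6 genes, all higher and all among the 216.

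**Figure D1:**
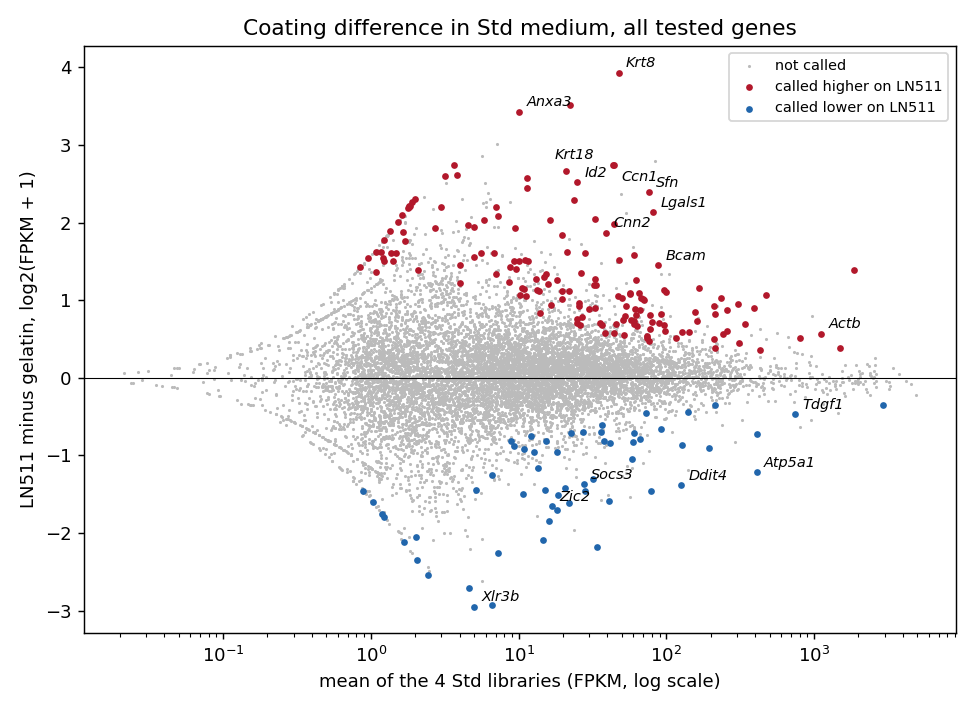
Each point is 1 of 10278 tested genes, with the mean FPKM of the 4 Std libraries on a log axis and the difference LN511 minus gelatin in log2(FPKM + 1) on the vertical axis. The 158 genes called higher (red) reach 3.93 at Krt8, and the 58 called lower (blue) reach -2.95 at Xlr3b. The lines of points at the left are genes listed at 0 in a group.

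Gene lists of 45 kinds were read against this background. The filter could keep a gene through a single group. List counts and medians thus include some members that were tested only because that group was high. In 26 lists the called members were higher on LN511, in 6 they were lower, in 5 both occurred, and 8 held no called member. List medians ran from -0.39 for interferon response genes to 1.27 for trophoblast markers. The 10 lists with a median above 0.5 held keratins, trophoblast markers that include the same keratins, annexins, YAP and SRF targets, actin genes, junctions, interstitial matrix, laminin receptors and focal adhesion genes. They overlap in part, as Krt8, Ccn1, Flna, Zyx and others stand in 2 lists each. Of the 216 called genes, 70 were in some list (57 higher and 13 lower) and 146 in none.

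**Figure D2:**
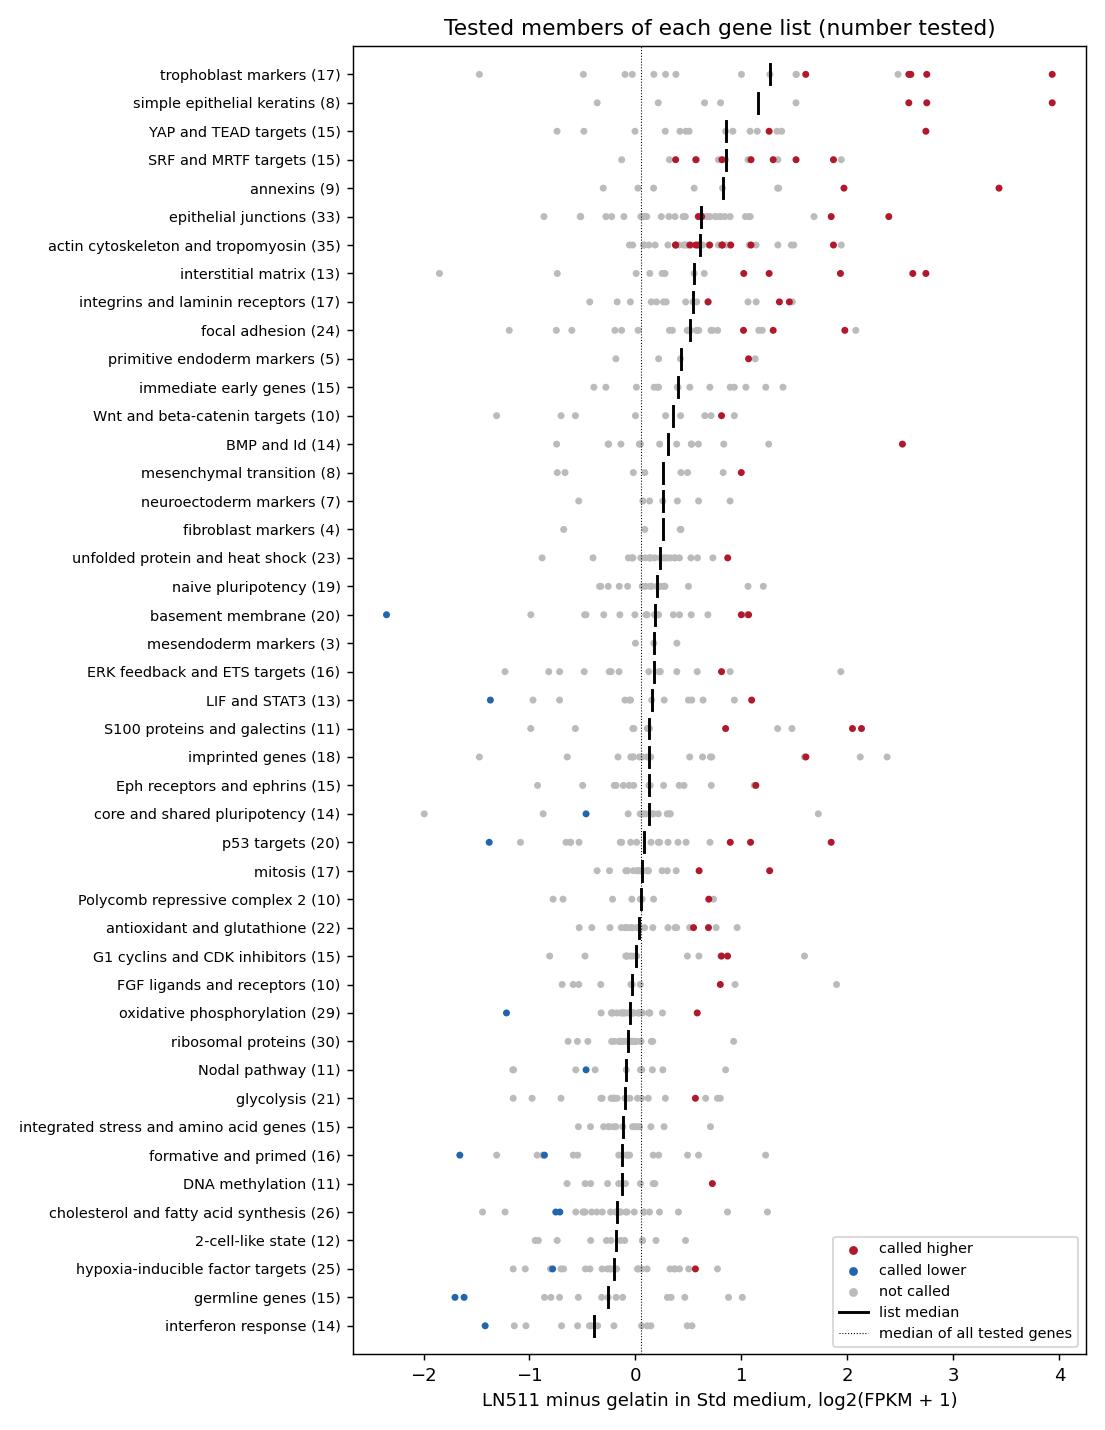
Each row is a gene list with its number of tested members, and each point is a member's difference LN511 minus gelatin in Std medium in log2(FPKM + 1). Called members are red (higher) or blue (lower), bars are list medians and the dotted line is the median of all tested genes, 0.05. Trophoblast markers stand at the top with a median of 1.27 and interferon response genes at the bottom with -0.39.

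On the log2(FPKM + 1) scale the largest rise on LN511 was that of the keratin gene Krt8, and its relatives Krt18 and Krt19 were higher too. Krt8 forms the first keratin filaments of the embryo with Krt18. It (mm10 chromosome 15, 101996711 to 102004342) was at 87.3 and 93.4 FPKM on LN511, against 4.77 and 5.19 FPKM on gelatin. Krt18 was at 75.5 and 76.7 FPKM on LN511, against 10.2 and 10.7 FPKM on gelatin. Krt19, also a keratin of simple epithelia, was at 21.9 and 18.4 FPKM on LN511, against 2.13 and 2.99 FPKM on gelatin. In all 3 genes both LN511 libraries were far above both gelatin libraries, with no overlap. The mean levels were 18.1-fold (Krt8), 7.27-fold (Krt18) and 7.89-fold (Krt19) higher on LN511, with log2 differences of 3.93 (SE 0.16, limma adjusted p = 0.000351), 2.75 (SE 0.26, adjusted p = 0.00788) and 2.58 (SE 0.29, adjusted p = 0.0113). These were the called members among 8 tested keratins, whose median was 1.16. Krt7, their partner in other simple epithelia, had a difference of 1.52 and was not called.

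Of 33 tested genes in the list of epithelial junctions, 4 were called, all higher, and the median was 0.62. None was called lower by limma. At unadjusted p under 0.05, 15 were higher and 2 lower. The list also holds Sfn, which is not itself a junction protein. Sfn, the epithelial 14-3-3 sigma protein that binds keratins and regulates their filaments, was at 124 and 132 FPKM on LN511, against 25.3 and 22.1 FPKM on gelatin. It was 5.42-fold higher on LN511 (log2 2.39, SE 0.12, adjusted p = 0.000946). Perp, a p53 target needed for desmosomes, was at 32.4 and 30.4 FPKM on LN511, against 8.64 and 7.41 FPKM on gelatin. The claudin of tight junctions Cldn4 was at 97.1 and 91.9 FPKM on LN511, against 62.7 and 59.2 FPKM on gelatin, and Ctnna1, which links cadherin to actin, averaged 153 ± 1.09 FPKM on LN511 and 101 ± 6.77 FPKM on gelatin. Neither gene's coatings overlapped, and the rises were 1.55-fold and 1.51-fold. E-cadherin (Cdh1) was at 146 and 142 FPKM on LN511, against 123 and 120 FPKM on gelatin, a difference of 0.24 (SE 0.13) that was not called (adjusted p = 0.416). Desmosomal genes were above 0 without a call, with Dsp at 0.84 and Dsg2 at 1.04, and Ocln of tight junctions at 1.07. Of the 7 called genes of the keratin and junction lists, 2 remained called without any 1 of the 4 Std libraries and 4 without either gelatin 2i replicate. These were Krt8 and Sfn in the Std libraries.

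Markers of other cell types were set beside the keratins, since Krt8, Krt18 and Krt19 also mark trophoblast. In bulk RNA, fewer cells of a type and less RNA per cell cannot be told apart. Of 17 tested trophoblast markers, 5 were called, all higher, with a median of 1.27. In 12 both LN511 libraries were above both gelatin libraries and in 3 both were below, against 28.7% and 20.7% of all tested genes. At unadjusted p under 0.05 limma had 9 higher and 1 lower. The lower one was Ascl2, a factor of trophoblast progenitors, at 4.43 and 0.72 FPKM on LN511, against 6.91 and 8.12 FPKM on gelatin (log2 -1.47, adjusted p = 0.225). Beside the keratins these were Wnt7b, a Wnt ligand of the placenta, at 5.48 and 6.95 FPKM on LN511, against 0.13 and 0.24 FPKM on gelatin, and Hand1, a factor of giant cells, at 3.12 and 2.35 FPKM on LN511, against 0.49 and 0 (listed) FPKM on gelatin. Wnt7b and Hand1 reached 1 FPKM only in the LN511 Std libraries. They could thus be tested, and counted here, only by being high there. The summed level of 20 markers was 254 and 262 FPKM on LN511, against 49.9 and 63.1 FPKM on gelatin. Without the 4 keratins among them it was 58.8 and 66.1 FPKM on LN511, against 30.5 and 41.5 FPKM on gelatin. The coatings did not overlap in either sum. The factors Cdx2 (at most 0.6 FPKM), Eomes (at most 0.71 FPKM) and Elf5 (listed at 0) were near 0 in the 4 libraries. They are only some of the factors listed, and 13 tested markers had a difference above 0 and 4 below. Primitive endoderm factors were also low (Gata4 at most 0.86 FPKM, Gata6 at most 0.58 FPKM, Sox17 at most 0.27 FPKM). The summed level of the endoderm markers was 92.4 and 95.4 FPKM on LN511, against 64.1 and 66.4 FPKM on gelatin, with Col4a1 called higher. None of the 4 fibroblast, 7 neuroectoderm or 3 mesendoderm markers tested was called by limma, and 1, 2 and 0 of them were under 0.05 unadjusted. Postn, Lum and T were listed at 0 in the 4 libraries. The part of such cells in the other results was not tested. Of the 5 trophoblast calls, 1 (Krt8) remained without any 1 Std library, and 4 without any 1 of the 2i libraries (adjusted p up to 0.183).

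Among receptors, 3 genes were called, all higher on LN511. Bcam, the Lutheran glycoprotein that binds the alpha chain of laminin-511, was at 130 and 128 FPKM on LN511, against 51.7 and 42 FPKM on gelatin. It was 2.76-fold higher on LN511 without overlap (log2 1.45, SE 0.11, adjusted p = 0.0044). The tetraspanin Cd9, which associates with laminin-binding integrins, averaged 120 ± 1.33 FPKM on LN511 and 73.9 ± 0.88 FPKM on gelatin (1.62-fold, adjusted p = 0.00875). The collagen and laminin receptor chain Itga1 was low, at 2.06 and 1.93 FPKM on LN511, against 0.11 and 0.23 FPKM on gelatin. These were the called members of 17 tested receptor genes, whose median was 0.54. No member was lower by limma, also before adjustment. Itga1 reached 1 FPKM only in the LN511 Std libraries, so it could be tested only through them.

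Itga6, the alpha chain of the main laminin-binding integrin of stem cells, was at 38.2 and 38 FPKM on LN511, against 32.9 and 30.3 FPKM on gelatin (log2 0.26, SE 0.11, adjusted p = 0.297). Its libraries did not overlap, and it was not called. The chain Itga3, which also pairs into a laminin receptor, was not tested because a 2i library was listed at 0. It stood at 103 and 57.9 FPKM on LN511, against 19.2 and 10.7 FPKM on gelatin, and both LN511 libraries were above both gelatin libraries. The fibronectin and vitronectin receptor chains Itga5 and Itgav had differences of 1.06 and 1.14 and were not called. Itgb1, the common beta chain, had no RefSeq row and was not analysed here.

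Focal adhesion genes lay above the background as a list, with a median of 0.51, and 3 of 24 were called. Csrp1, a LIM protein of actin bundles, was at 68.1 and 74.8 FPKM on LN511, against 16.6 and 18.3 FPKM on gelatin. It was 4.1-fold higher without overlap (log2 1.98, SE 0.18, adjusted p = 0.00726). Zyx, the zyxin that marks tensed adhesions, was at 20.5 and 22.5 FPKM on LN511, against 7.41 and 8.92 FPKM on gelatin. Ilk, the integrin-linked pseudokinase, was at 24.9 and 28.3 FPKM on LN511, against 13.4 and 11.9 FPKM on gelatin. Zyx was 2.63-fold and Ilk 2.11-fold higher on LN511. The structural members talin (Tln1), paxillin (Pxn), vinculin (Vcl) and the kinase Ptk2 had differences of 0.49 to 0.58 and were not called. Src, the kinase, had -1.19 and was not called. In all, 14 members were higher at unadjusted p under 0.05. Of the 6 receptor and adhesion calls, 0, 1, 1 and 1 remained without LN511 replicate 1, LN511 replicate 2, gelatin replicate 1 and gelatin replicate 2, 3 without either gelatin 2i replicate and 5 without either LN511 2i replicate (adjusted p up to 0.16).

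The actin cytoskeleton list held the most calls of the 45. Of 35 tested, 11 were called, all higher on LN511, with a median of 0.61. In 31 of the 35 both LN511 libraries were above both gelatin libraries, against 28.7% of all tested genes. At unadjusted p under 0.05, 28 were higher and none lower, and 1 was lower without overlap. Cnn2, a calponin of stress fibres, was at 64.3 and 59.5 FPKM on LN511, against 14.7 and 17.9 FPKM on gelatin. It was 3.8-fold higher without overlap (log2 1.87, SE 0.15, adjusted p = 0.00494). The tropomyosin Tpm4 was at 89.4 and 88.3 FPKM on LN511, against 43.8 and 38.7 FPKM on gelatin. The crosslinkers Actn4 and Flna were 1.77-fold higher each, with Actn4 at 275 and 272 FPKM on LN511, against 147 and 163 FPKM on gelatin. The libraries of the coatings were apart in each of these genes.

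The cytoplasmic actins, among the most abundant messages, differed by less. Actb was at 1275 and 1391 FPKM on LN511, against 974 and 827 FPKM on gelatin (1.48-fold, log2 0.57, SE 0.09, adjusted p = 0.0349). Actg1 had a log2 difference of 0.38 (adjusted p = 0.037). Both have processed pseudogene copies that could share reads. The actin-sequestering thymosins were also called, Tmsb4x with 0.9 and Tmsb10 with 0.51, as were Cnn3 (0.59), the Arp2/3 subunit Arpc5 (0.7) and Tpm3 (0.38). Contractile smooth-muscle type members had larger differences without a call, with Myl9 at 1.94 and Tpm1 at 1.34. Acta2, the smooth muscle actin, was not tested and stood at 4.75 and 6.63 FPKM on LN511, against 0 and 0 FPKM listed on gelatin. Among 15 tested SRF and MRTF targets, 7 were called, all higher, while 1.54% of all tested genes were called higher. The median was 0.85, and 14 had no overlap in that direction, against 28.7% of all tested genes. The call that the actin list does not hold, beside Zyx, was Fhl1, a LIM-domain protein of muscle (16.2 and 17.6 FPKM on LN511, against 5.58 and 4.96 FPKM on gelatin, 3.21-fold). Srf itself had a difference of -0.13 and was not called. Of the 12 called genes described here, none remained without LN511 replicate 1 or replicate 2 (adjusted p up to 0.189), 2 and 3 remained without gelatin replicates 1 and 2, 7 without either gelatin 2i replicate and 12 without either LN511 2i replicate.

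**Figure D3:**
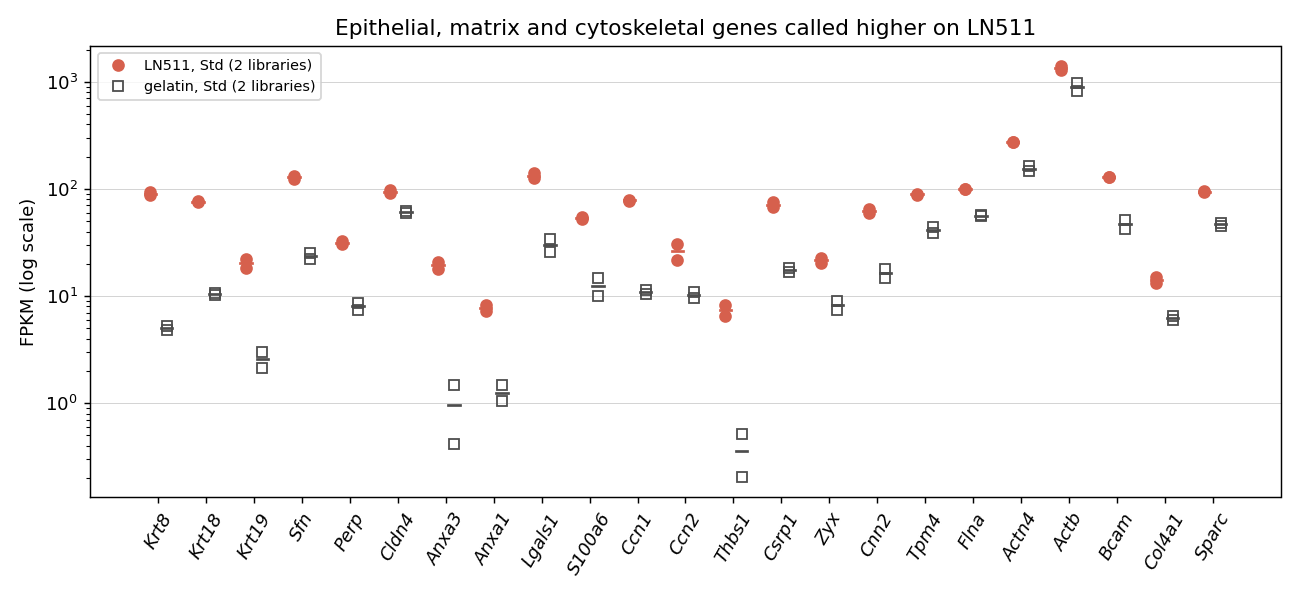
FPKM on a log axis in each Std library for 23 genes called higher, with LN511 libraries as filled circles left of gelatin libraries as open squares, and short lines at the group means. The 2 LN511 values lie above the 2 gelatin values in every gene shown, from Krt8 (87.3 and 93.4 against 4.77 and 5.19 FPKM) to Actb (1275 and 1391 against 974 and 827 FPKM).

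YAP and TEAD targets and matricellular genes rose in part. Ccn1, which encodes CYR61, a secreted integrin ligand and a standard YAP target, was at 77.7 and 78.4 FPKM on LN511, against 11.3 and 10.4 FPKM on gelatin. It was 7.2-fold higher (log2 2.74, SE 0.11, adjusted p = 0.000351). Ccn2, its relative CTGF, was at 21.5 and 30.8 FPKM on LN511, against 9.56 and 10.8 FPKM on gelatin. Neither gene's libraries overlapped. These were the called members of 15 tested YAP and TEAD targets, with a median of 0.85, and 1 member was lower at unadjusted p under 0.05. Lats2, the feedback kinase, had a difference of 0.85, Ptpn14 1.38 and Ajuba 0.51, none of them called.

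Interstitial matrix genes had 5 of 13 members called, all higher, with a median of 0.55, and Ccn1 and Ccn2 were 2 of them. Another was thrombospondin 1 (Thbs1), at 6.47 and 8.19 FPKM on LN511, against 0.51 and 0.21 FPKM on gelatin. Osteopontin (Spp1), also called, averaged 92.9 ± 4.08 FPKM on LN511 and 45.2 ± 1.51 FPKM on gelatin. The libraries of the coatings were apart in both. Thbs1 reached 1 FPKM only in the LN511 Std libraries, so it could be tested only through them. Fibronectin (Fn1) had a difference of -0.74 and Mmp2, a gelatinase, of -1.85, and neither was called.

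The cells' own basement membrane genes gave no common direction. Of 20 tested, 2 were called higher and 1 lower, with a median of 0.19. The type IV collagen chain Col4a1 was at 13.2 and 15.2 FPKM on LN511, against 6.52 and 5.98 FPKM on gelatin (2.27-fold, adjusted p = 0.0492). The collagen-binding protein Sparc was at 93.5 and 95.2 FPKM on LN511, against 45.4 and 48.1 FPKM on gelatin (2.02-fold). The chains that make up laminin-511 showed no call. Lama5 was at 38.5 and 33.3 FPKM on LN511, against 40 and 27.8 FPKM on gelatin, and Lamc1 at 48.3 and 49.5 FPKM on LN511, against 51 and 47.3 FPKM on gelatin. Lamb1 scattered within coatings, at 40.8 and 15.5 FPKM on LN511, against 28.3 and 34.6 FPKM on gelatin. The coatings overlapped in these 3 genes. Lama1, the chain of laminin-111 in the early embryo, had a difference of 1.05 (SE 0.3) that was not called (adjusted p = 0.159). Of the 6 matrix calls described here, 1, 1, 3 and 3 remained without LN511 replicate 1, LN511 replicate 2, gelatin replicate 1 and gelatin replicate 2, and 4 without any 1 of the 2i libraries (adjusted p up to 0.211). Ccn1 was called in each of these fits.

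RefSeq promoter windows (GRCm38.p6, 250 bases before to 50 after a start) were searched on both strands for the CArG box bound by SRF, the TEAD motif GGAATG and the AP-1 motif TGANTCA. A window was found for 122 of the 158 higher genes and 39 of the 58 lower genes. The CArG box was in 3.29% of the 152 windows of genes called higher, in 0 of the 46 windows of genes called lower and in 1.2% of the 10425 windows of all tested genes. The 5 higher genes with it were Actg1, Cnn2, Fhl1, Gsto1 and Rnf128. Among the called SRF and MRTF targets, which were listed for their link to SRF, 3 of 7 windows held it, and these 3 are shown because they carry the motif whose coactivator reads the state of actin. The TEAD motif was in 13.2% of the windows of higher genes, 10.9% of those of lower genes and 12.1% of all, and the AP-1 motif in 7.24%, 4.35% and 4.76%. The window of Ccn1 is shown for its TEAD motif. Capitals mark the CArG box in the windows of Actg1 (chr11:120348446-120348745, minus strand), Cnn2 (chr10:79988350-79988649, plus strand) and Fhl1 (chrX:56779433-56779732, plus strand), and the TEAD motif, which lies on the opposite strand, in Ccn1 (chr3:145649936-145650235, minus strand). All are written in the direction of the gene.
Actg1: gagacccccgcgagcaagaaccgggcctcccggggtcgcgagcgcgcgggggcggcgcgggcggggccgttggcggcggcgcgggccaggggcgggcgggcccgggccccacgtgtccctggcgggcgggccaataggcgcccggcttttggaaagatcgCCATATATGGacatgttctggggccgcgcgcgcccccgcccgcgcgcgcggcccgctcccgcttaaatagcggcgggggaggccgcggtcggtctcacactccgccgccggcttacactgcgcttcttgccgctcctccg
Cnn2: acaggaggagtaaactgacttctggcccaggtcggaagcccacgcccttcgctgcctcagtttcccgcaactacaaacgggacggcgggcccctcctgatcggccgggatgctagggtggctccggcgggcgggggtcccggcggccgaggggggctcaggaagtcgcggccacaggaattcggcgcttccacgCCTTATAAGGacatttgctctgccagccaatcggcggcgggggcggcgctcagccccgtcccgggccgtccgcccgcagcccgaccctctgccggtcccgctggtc
Fhl1: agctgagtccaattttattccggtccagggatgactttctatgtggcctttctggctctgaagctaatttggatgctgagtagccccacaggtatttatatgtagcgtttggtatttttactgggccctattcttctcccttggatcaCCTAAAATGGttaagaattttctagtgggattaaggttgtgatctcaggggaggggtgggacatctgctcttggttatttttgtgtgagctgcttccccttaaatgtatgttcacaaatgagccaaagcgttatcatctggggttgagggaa
Ccn1: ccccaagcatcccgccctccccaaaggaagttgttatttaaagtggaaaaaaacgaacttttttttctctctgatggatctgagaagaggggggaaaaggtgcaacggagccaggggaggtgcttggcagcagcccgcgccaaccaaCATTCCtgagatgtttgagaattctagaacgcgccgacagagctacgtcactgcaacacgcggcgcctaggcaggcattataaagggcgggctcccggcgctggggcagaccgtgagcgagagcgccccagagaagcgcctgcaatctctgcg
The CArG box began 90 bases before the start in Actg1, 56 in Cnn2 and 102 in Fhl1, and the TEAD motif 103 bases before it in Ccn1. A second Fhl1 window held no such motif, nor did those of Krt8, Krt18, Sfn, Tpm4 and Csrp1, while Flna had a TEAD motif and Zyx an AP-1 motif. A match is a description of letters in a window, and these windows leave out enhancers. The hypoxia motif ACGTG was in 25.7% of the windows of higher genes, 28.3% of those of lower genes and 25.8% of all, and the SREBP motif TCACNCCAC in 1.97%, 2.17% and 1.25%.

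Calcium-binding proteins at the membrane and galectins gave 5 calls, all higher. Anxa3, an annexin that binds membrane phospholipids, was at 20.8 and 17.8 FPKM on LN511, against 1.49 and 0.42 FPKM on gelatin (20.3-fold, log2 3.43, SE 0.34, adjusted p = 0.00875). Anxa1 was at 7.28 and 8.32 FPKM on LN511, against 1.04 and 1.47 FPKM on gelatin. Both were low on gelatin and the coatings did not overlap. The annexin list had a median of 0.82 over 9 tested genes. Lgals1, a secreted lectin that binds laminin and integrins, was at 125 and 141 FPKM on LN511, against 25.8 and 33.8 FPKM on gelatin (4.47-fold, log2 2.13, SE 0.15, adjusted p = 0.00368). S100a6 was at 52.7 and 54.4 FPKM on LN511, against 14.8 and 10 FPKM on gelatin, and S100a11 at 204 and 196 FPKM on LN511, against 119 and 103 FPKM on gelatin. Both LN511 libraries were higher in each. The list of S100 proteins and galectins had a median of 0.13 over 11 genes. Of these 5 calls, 1 remained without either LN511 replicate, 2 without either gelatin replicate or either gelatin 2i replicate, and 5 without either LN511 2i replicate (adjusted p up to 0.198). Lgals1 was called in each of these fits.

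Other large rises were in single genes of varied function. Id2, an inhibitor of basic helix-loop-helix factors and a BMP target, was at 46 and 40.3 FPKM on LN511, against 5.06 and 8.74 FPKM on gelatin (6.25-fold, log2 2.52, SE 0.28, adjusted p = 0.0109). It was the called member of 14 BMP and Id genes, and Id1 and Id3 had differences of 0.59 and 0.39. Tgm1, a transglutaminase of the epidermis, was at 43.4 and 30.1 FPKM on LN511, against 6.03 and 3.84 FPKM on gelatin. Arhgap35, a GTPase-activating protein downstream of integrins, was at 19.5 and 20.2 FPKM on LN511, against 2.55 and 3.1 FPKM on gelatin. Tgm1 was 7.44-fold and Arhgap35 7.02-fold higher, without overlap. Plin2, a coat protein of lipid droplets, averaged 40.1 ± 4.23 FPKM on LN511 and 7.47 ± 1.78 FPKM on gelatin. Tinagl1, a matricellular protein of basement membranes, was at 5.93 and 8.3 FPKM on LN511, against 0 (listed) and 0.44 FPKM on gelatin. Rpph1, the RNA of RNase P, was at 35 and 49.1 FPKM on LN511, against 3.9 and 1.83 FPKM on gelatin. It is short (mm10 chromosome 14, 50807447 to 50807771), so its gelatin values rest on few fragments. Among abundant messages, the ribosomal gene Rps28 was at 2877 and 2500 FPKM on LN511, against 1040 and 1008 FPKM on gelatin, and the brain-expressed X-linked gene Bex1 at 640 and 635 FPKM on LN511, against 309 and 298 FPKM on gelatin. Ribosomal genes such as Rps28 have many near-identical copies, so its value is uncertain. The imprinted gene Nnat was 3.21-fold higher (39.3 and 46.9 FPKM on LN511, against 12.7 and 14.2 FPKM on gelatin) and was the called member of 18 imprinted genes, of which H19 and Peg10 had differences of 2.37 and 2.12 without a call. Of these 9 calls, none remained without either LN511 replicate (adjusted p up to 0.151), 3 without either gelatin replicate, 6 without either gelatin 2i replicate and 9 without either LN511 2i replicate.

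Among pluripotency genes, 1 of 33 naive and core members was called (3.03%), near the 2.1% of all tested genes. None of 19 tested naive genes was called by limma, and the median was 0.2. At unadjusted p under 0.05 there were 5 (26.3%, against 15.8% of all tested genes), 4 higher and 1 lower. Nanog was at 48.4 and 43.2 FPKM on LN511, against 56.7 and 53.1 FPKM on gelatin, a difference of -0.26 (SE 0.09, adjusted p = 0.239). Esrrb was at 46.5 and 53.8 FPKM on LN511, against 28.9 and 18.9 FPKM on gelatin (log2 1.06, SE 0.3, adjusted p = 0.154), and Gbx2 at 39.5 and 44.5 FPKM on LN511, against 18.1 and 17.1 FPKM on gelatin (log2 1.21, SE 0.25, adjusted p = 0.0662). The libraries did not overlap in these 3 genes, and none was called. Klf4, Zfp42 and Fgf4 had differences of 0.15, -0.07 and -0.33. Of 14 core genes, 1 was called. This was Tdgf1, the Nodal co-receptor Cripto, at 617 and 628 FPKM on LN511, against 843 and 878 FPKM on gelatin (0.724-fold, adjusted p = 0.0274). Pou5f1 and Sox2 had differences of 0.15 and 0.07. The differences of the core members ran from -1.99 to 1.73. At unadjusted limma p under 0.05 there were 4 core genes (28.6%), 1 higher and 3 lower.

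Among 16 formative and primed genes, 2 were called lower, and the median was -0.12. At unadjusted limma p under 0.05, 6 were lower and 1 higher. Zic2, a zinc finger factor of the formative state, was at 8.95 and 6.42 FPKM on LN511, against 26 and 26.3 FPKM on gelatin (0.294-fold, log2 -1.66, SE 0.22, adjusted p = 0.0204). The kinase gene Pim2 was at 85.1 and 94.8 FPKM on LN511, against 162 and 165 FPKM on gelatin. Both were lower on LN511 without overlap. Otx2, Lef1 and Sall2 had differences of -0.88, -1.31 and -0.93 without a call, and Pou3f1, Dnmt3a and Dnmt3b of -0.06, 0.17 and -0.16. In the LIF and STAT3 list, Socs3, the feedback inhibitor of the pathway, was lower, at 14 and 16.1 FPKM on LN511, against 37.2 and 43.9 FPKM on gelatin (0.372-fold, adjusted p = 0.0322). Pim3, also a STAT3 target, was higher, at 77.8 and 76.4 FPKM on LN511, against 41 and 30.8 FPKM on gelatin. The other 11 tested members were not called. In that list 5 members were higher and 2 lower at unadjusted limma p under 0.05 (53.8% together, against 15.8% of all tested genes). Of the 5 calls among these lists, none remained without any 1 of the 4 Std libraries (adjusted p up to 0.187), 1 without either gelatin 2i replicate and 5 without either LN511 2i replicate.

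Signalling and cell cycle genes gave scattered calls. Epha2, an ephrin receptor, was at 132 and 136 FPKM on LN511, against 60.4 and 60.4 FPKM on gelatin (2.22-fold, adjusted p = 0.00726), and the adaptor Shc1 averaged 67 ± 0.53 FPKM on LN511 and 38 ± 0.5 FPKM on gelatin. Both were higher on LN511 without overlap. Cyclin D1 (Ccnd1), a target of ERK, Wnt and adhesion, was at 79.4 and 80.7 FPKM on LN511, against 40.2 and 50.6 FPKM on gelatin, and Ccnd3 at 82.8 and 87.9 FPKM on LN511, against 51.2 and 41.7 FPKM on gelatin. Cyclin A2 (Ccna2) was at 94.9 and 83.2 FPKM on LN511, against 35.2 and 37.5 FPKM on gelatin (2.45-fold, adjusted p = 0.00494). The anaphase activator Cdc20 was at 312 and 311 FPKM on LN511, against 206 and 205 FPKM on gelatin. The other 15 tested mitosis genes and the other 13 G1 genes were not called, with list medians of 0.06 and 0. In the ERK list Ccnd1 was the called member of 16, and Dusp6, the ERK phosphatase, had a difference of 0.58 (adjusted p = 0.266). None of 15 immediate early genes was called by limma, while 7 were higher at unadjusted p under 0.05 and none lower, with a median of 0.4. Jun had a difference of 1.23 and Klf6 one of 1.39 (adjusted p = 0.05), and Egr1, not tested, stood at 18.2 and 17.5 FPKM on LN511, against 7.52 and 7.45 FPKM on gelatin. Among 20 p53 targets, Perp, Gadd45a (78.6 and 77 FPKM on LN511, against 35.1 and 37.2 FPKM on gelatin) and Phlda3 (42.4 and 43.3 FPKM on LN511, against 22.3 and 22.9 FPKM on gelatin) were called higher and Ddit4 lower, with a median of 0.08, and Cdkn1a had a difference of 0.01. Of the 8 called genes first described here, 0, 1, 1 and 2 remained without LN511 replicate 1, LN511 replicate 2, gelatin replicate 1 and gelatin replicate 2, 4 without either gelatin 2i replicate and 7 without either LN511 2i replicate (adjusted p up to 0.165).

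Of 15 tested germline genes, 2 were called, both lower on LN511, and the median was -0.26. In 5 both LN511 libraries were above both gelatin libraries and in 6 both were below, against 28.7% and 20.7% of all tested genes. At unadjusted p under 0.05 limma had 1 higher and 3 lower (26.7% together, against 15.8% of all tested genes). Hormad1, a meiotic chromosome axis protein, was at 7.77 and 8.19 FPKM on LN511, against 29.2 and 27.2 FPKM on gelatin (0.283-fold, log2 -1.7, SE 0.26, adjusted p = 0.0331). Tdrd12, a piRNA pathway helicase, was at 8.17 and 12.8 FPKM on LN511, against 34.8 and 32.2 FPKM on gelatin. These were the called members. Genes outside that list with large falls were Hsf2bp, a meiotic recombination factor, at 9.36 and 9.02 FPKM on LN511, against 28.5 and 27.5 FPKM on gelatin, and Fkbp6, which acts in the piRNA pathway, at 5.61 and 4.69 FPKM on LN511, against 15.9 and 16.8 FPKM on gelatin. The libraries did not overlap in these 4 genes. Rpl39l, a testis-rich ribosomal paralog, was at 3.59 and 6.46 FPKM on LN511, against 21.4 and 26.9 FPKM on gelatin, and it is close in sequence to Rpl39. Dazl, Mael and Ddx4 had differences of -0.26, -0.72 and 1.01 without a call.

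The largest fall on the log2(FPKM + 1) scale was that of Xlr3b, a gene of an X-linked cluster that also holds Xlr3a. Xlr3b was at 0.41 and 0.36 FPKM on LN511, against 9.61 and 9.68 FPKM on gelatin, and Xlr3a at 1.53 and 2.21 FPKM on LN511, against 12.7 and 12.5 FPKM on gelatin. Their log2 differences were -2.95 (SE 0.25, adjusted p = 0.00533) and -2.26 (SE 0.21, adjusted p = 0.00726). They are near-identical copies, so their separate values are uncertain. The zinc finger gene Zfp985, which has close copies, was at 9.62 and 13.1 FPKM on LN511, against 70.1 and 42.5 FPKM on gelatin. Zfp229 was at 1.99 and 0 (listed) FPKM on LN511, against 11.6 and 12.8 FPKM on gelatin. The insulin-like growth factor messenger-binding gene Igf2bp2 was at 7.02 and 5.97 FPKM on LN511, against 24.8 and 26.9 FPKM on gelatin (0.251-fold). Nupr1, a stress-induced chromatin protein, averaged 20.3 ± 6.69 FPKM on LN511 and 61.6 ± 8.06 FPKM on gelatin, and Neat1, the long RNA of paraspeckles, 14.6 ± 0.88 FPKM on LN511 and 42 ± 4.4 FPKM on gelatin. The phosphatase Mtmr3 was at 1.12 and 0 (listed) FPKM on LN511, against 10.4 and 6.88 FPKM on gelatin. The receptor gene Mrgpra6 was abundant, at 322 and 302 FPKM on LN511, against 507 and 526 FPKM on gelatin. Each of these genes had both LN511 libraries below both gelatin libraries. Of the 14 lower calls of the germ cell group and of these genes, 1, 3, 1 and 1 remained without LN511 replicate 1, LN511 replicate 2, gelatin replicate 1 and gelatin replicate 2, 6 without either gelatin 2i replicate and 11 without either LN511 2i replicate (adjusted p up to 0.198).

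**Figure D4:**
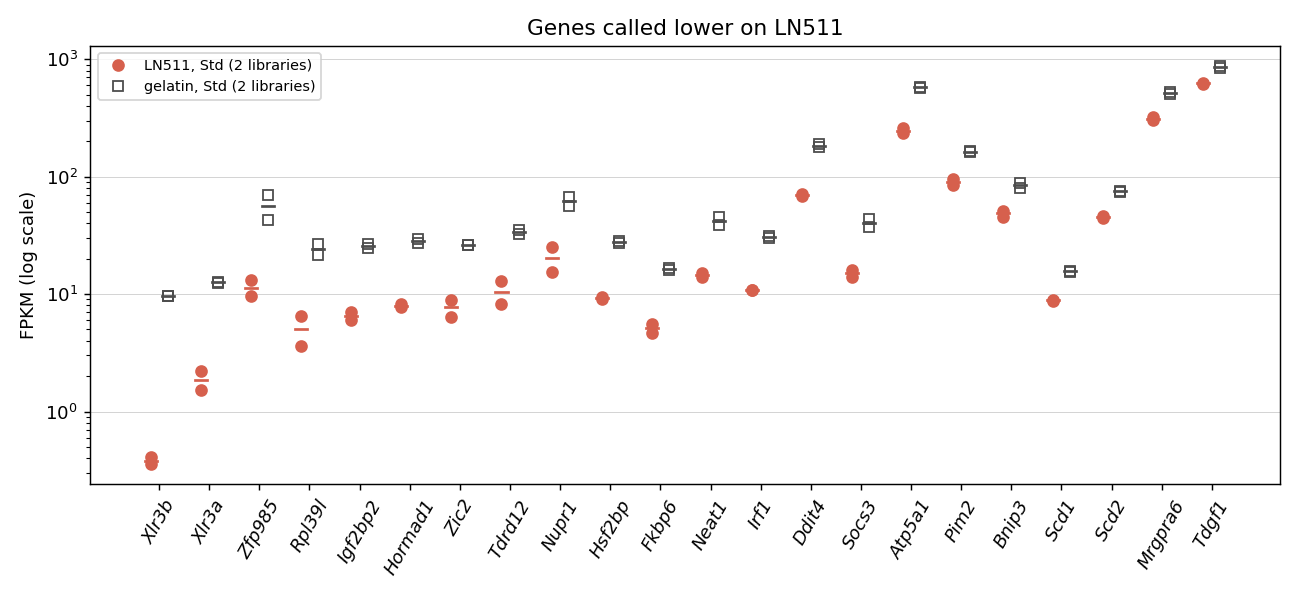
FPKM on a log axis in each Std library for 22 genes called lower, with LN511 libraries as filled circles left of gelatin libraries as open squares, and short lines at the group means. Both LN511 values lie below both gelatin values in each gene shown, from Xlr3b (0.41 and 0.36 against 9.61 and 9.68 FPKM) to Tdgf1 (617 and 628 against 843 and 878 FPKM).

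Among stress and metabolic genes, calls went in both directions, while the hypoxia and fatty acid lists leaned lower before adjustment. Ddit4, the REDD1 inhibitor of mTORC1 that hypoxia, p53 and glucocorticoids induce, was at 68.5 and 71 FPKM on LN511, against 189 and 178 FPKM on gelatin (0.381-fold, log2 -1.38, SE 0.11, adjusted p = 0.0051). Of 25 hypoxia-inducible factor targets, Bnip3, a mitophagy receptor, was lower (45.8 and 51.4 FPKM on LN511, against 79.7 and 88.7 FPKM on gelatin) and the glucose transporter Slc2a1 was higher (291 and 286 FPKM on LN511, against 203 and 186 FPKM on gelatin), with a median of -0.2. The coatings were apart in these 3 genes. Slc2a1 was also the called member of 21 glycolysis genes, with a median of -0.1. At unadjusted limma p under 0.05, 8 hypoxia targets were lower and 1 higher, and 4 glycolysis genes were lower and 2 higher. Both called members of 26 cholesterol and fatty acid genes were desaturases that were lower on LN511, Scd1 (8.96 and 8.72 FPKM on LN511, against 15.7 and 15.5 FPKM on gelatin) and Scd2 (46 and 44.7 FPKM on LN511, against 73.9 and 76.1 FPKM on gelatin), and the list median was -0.18. They make monounsaturated fatty acids. In that list 7 members were lower at unadjusted limma p under 0.05 and 0 higher.

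Among 29 oxidative phosphorylation genes the ATP synthase alpha subunit Atp5a1 was lower and cytochrome c (Cycs) higher, with a median of -0.05. Atp5a1 was at 234 and 260 FPKM on LN511, against 585 and 565 FPKM on gelatin (0.43-fold, log2 -1.22, SE 0.07, adjusted p = 0.00267). Cycs averaged 53.3 ± 1.4 FPKM on LN511 and 35.2 ± 1.25 FPKM on gelatin. Irf1, an interferon-induced factor, was at 10.8 and 10.9 FPKM on LN511, against 30.3 and 31.1 FPKM on gelatin (0.354-fold, adjusted p = 0.00935), and it was the called member of 14 interferon genes. The libraries did not overlap in these genes. The small heat shock protein Hspb1 was 1.83-fold higher, the antioxidant enzymes Gpx1 and Gsto1 1.61-fold and 1.47-fold, the NuRD subunit Mbd3 1.66-fold and the Polycomb-associated Epop 1.63-fold, each the called member or members of their lists. None of the 30 tested members of the ribosomal protein list was called by limma. That list does not hold Rps28 and Rpl39l, which were called. None of 15 integrated stress genes or 12 genes of the 2-cell-like state was called either. In these lists 7, 5 and 2 genes had p under 0.05 unadjusted (23.3%, 33.3% and 16.7%, against 15.8% of all tested genes). Their medians were -0.07, -0.12 and -0.19. Of the 13 calls described here, 1, 1, 3 and 3 remained without LN511 replicate 1, LN511 replicate 2, gelatin replicate 1 and gelatin replicate 2, 6 without either gelatin 2i replicate and 10 without either LN511 2i replicate (adjusted p up to 0.201). Atp5a1 was called in each of these fits.

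The effect of the coating in Std was then set against its effect in 2i, between which no library is shared but 1 estimate of each gene's spread is. In 2i, 2 of the 10278 genes were called for coating (0.0195%), Ccn1 and the peroxiredoxin Prdx6, and 1228 had p under 0.05 unadjusted. Since the called genes were chosen by their difference in Std, their medians in Std are raised by that choice and are no measure of a loss in 2i. The 158 genes higher in Std had a median coating difference of 1.2 in Std and 0.15 in 2i, where 102 of them (64.6%) were above 0. The 58 genes lower in Std had medians of -1.27 in Std and -0.06 in 2i, where 34 (58.6%) were below 0. Of all tested genes, 50.3% were above 0 in 2i. Id2 had nearly the same difference in both media (2.52 in Std and 2.31 in 2i), as did Neat1 (-1.46 in Std and -1.5 in 2i) and Col4a1 (1.07 in Std and 1.35 in 2i).

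The interaction of coating and medium, the test of that difference itself, was called for 19 genes (0.185%), and 1251 had p under 0.05 unadjusted. All 19 were also called in Std, 14 with a higher and 5 with a lower coating difference in Std than in 2i. For Krt8 the interaction was 3.66 (SE 0.22, limma adjusted p = 0.0114). On LN511 in 2i Krt8 was at 12.5 and 13.6 FPKM, against 9.51 and 11.9 FPKM on gelatin in 2i, so its high level was seen in the LN511 Std libraries. Sfn was at 41.2 and 47.2 FPKM on LN511 in 2i, against 43.8 and 40.3 FPKM on gelatin in 2i (interaction 2.32, SE 0.17, adjusted p = 0.0114). Lgals1, Ccna2 and Flna had 2i differences of 0.05, -0.04 and -0.25, against 2.13, 1.27 and 0.82 in Std. For Ccn1 the coating difference was positive in both media, 2.74 in Std and 1.35 in 2i. With 1 library left out the interaction was called for 0 genes without LN511 Std replicate 1 or either gelatin Std replicate, 2 without LN511 Std replicate 2 or either gelatin 2i replicate, and 6 and 11 without LN511 2i replicates 1 and 2. For Krt18 the interaction was not called, with differences of 2.75 in Std and 0.8 in 2i.

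**Figure D5:**
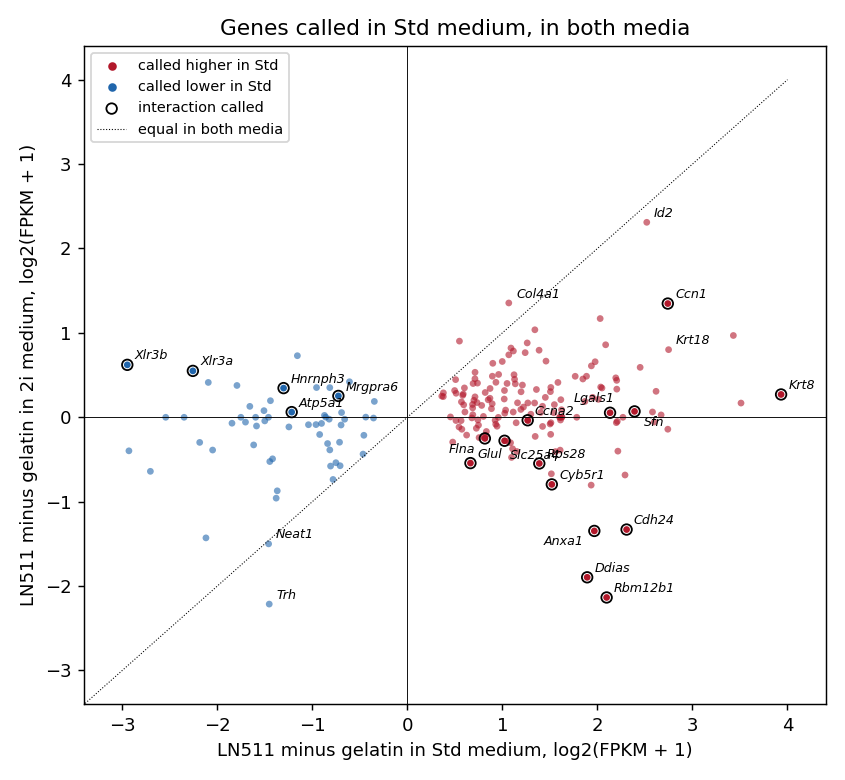
Coating difference (LN511 minus gelatin, log2(FPKM + 1)) in Std medium on the horizontal axis and in 2i medium on the vertical axis for the 216 genes called in Std, with the 19 genes called for the interaction ringed and the dotted line marking equal differences. Medians on the vertical axis are 0.15 for genes higher in Std and -0.06 for genes lower in Std. Krt8 lies at 3.93 in Std and 0.27 in 2i, while Id2, Neat1 and Col4a1 lie near the line.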

How the data were processed

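The authors deposited FPKM values per gene and per transcript for 8 libraries of Bruce 4 cells. The submitters' processing notes name mm10, Cufflinks 2.1.1 and TopHat2 2.1.1. Settings, annotation, strandedness and scaling were not found in these sources. The deposited gene table listed at 0 24832 of the 52481 values (47.32%) that transcript sums put at 1 FPKM or more, so gene values are sums over RefSeq transcripts. Of 32688 RefSeq rows, 31786 matched a symbol in the GRCm38.p6 table. Another 21844 rows of assembled transcripts, with 32.7% to 48.1% of the FPKM of the 4 Std libraries, were left out. No sample column was left out (0).

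Genes with 1 FPKM in 2 libraries were kept (11244). Of these, 836 with 1 replicate at 0 and the other at 5 or more, and 130 listed at 0 in both libraries of 1 group while a different group averaged 5 or more, were set aside, leaving 10278. A linear model from limma 3.58.1, run in R 4.3.3 with trended eBayes, was fitted to log2(FPKM + 1) with 1 mean per group over all 8 libraries, 4 residual degrees of freedom and Benjamini-Hochberg adjustment. The fit was tested on simulated data. Alternatives covered the pseudocount, filters, zeros, normalization, the samples fitted, the trend, a replicate block and each library left out.

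The members and lists were chosen with earlier results of these data known. Named genes were the 14 highest and 14 lowest differences among called genes at 5 FPKM or more, the 6 most abundant called genes that moved by 0.5 or more, up to 4 called members of each list (or the largest difference in a list without one), a panel of pluripotency, laminin and adhesion genes, and the 6 largest interactions. Other members, Hand1 and Prdx6 included, were named after their values were seen. Depth was read from the lowest values of FPKM times transcript length and is an estimate, so no counting interval is given. A few genes are not reported here.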

Additional observations from a re-analysis of the deposited data

Results flagged for a closer look

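For 19 genes the coating difference in Std medium was not the same as that in 2i by the limma interaction test (log2 of LN511 over gelatin in Std minus the same in 2i, adjusted p under 0.05). In 14 of them the interaction was positive. It was 4.23 for Rbm12b1, 3.79 for Ddias, 3.66 for Krt8, 3.64 for Cdh24, 3.31 for Anxa1, 2.32 for Sfn, 2.32 for Cyb5r1, 2.08 for Lgals1, 1.94 for Rps28, 1.39 for Ccn1, 1.3 for Ccna2, 1.3 for Slc25a4, 1.21 for Glul and 1.07 for Flna. In 5 it was negative, at -0.98 for Mrgpra6, -1.28 for Atp5a1, -1.65 for Hnrnph3, -2.81 for Xlr3a and -3.57 for Xlr3b.

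Rbm12b1 was at 3.37 and 3.18 FPKM on LN511 in Std and listed at 0 in both gelatin Std libraries, while it was listed at 0 in both LN511 2i libraries and stood at 3.69 and 3.12 FPKM on gelatin in 2i. Ddias had the same pattern, with 2.83 and 2.6 FPKM on LN511 in Std and 2.33 and 3.16 FPKM on gelatin in 2i. Cdh24 was listed at 0 in both gelatin Std libraries. A 0 can be a failed estimate, and whether these 3 genes were truly absent was not tested. Anxa1 had opposite directions without any value listed at 0. It was at 7.28 and 8.32 FPKM on LN511 in Std, against 1.04 and 1.47 FPKM on gelatin in Std, and at 1.65 and 2.36 FPKM on LN511 in 2i, against 6.41 and 6.76 FPKM on gelatin in 2i.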

How the results depend on the processing

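None of the 216 called genes changed sign in any alternative that tested it (28 of them were tested in the deposited gene table). As none overlapped between coatings, only quantile normalization, median centring and the deposited gene table could have changed a sign. As reported, 216 genes were called, 158 higher and 58 lower, and 19 for the interaction. The deposited gene table without zeros (799 genes tested) called 107, 72 higher and 35 lower, and 42 for the interaction. The 4 Std libraries alone called 6, 6 higher and 0 lower, with the residual degrees of freedom of 4 libraries. For the interaction, no filter called 31 and keeping doubtful zeros 53. With 1 library left out the count ran from 9 to 199 genes, 5 to 146 higher and 4 to 53 lower, and 0 to 11 for the interaction. The lone replicate left in a group is then assumed to vary like the other groups. Replicate numbers did not pair the samples, since same-numbered samples deviated together with r of -0.02 to 0.02. A replicate block called 80, 57 higher and 23 lower, all 80 among the 216, and 1 for the interaction. The other alternatives (pseudocount 0.1, no filter, a filter of 5 FPKM, doubtful zeros kept, quantile normalization, median centring, no trend and, chosen after seeing the data, only genes above 0 in all 4 Std libraries) called 159 to 238 genes. The share of higher genes among calls was 73.1% as reported, 64.2% after quantile normalization and 63.8% after median centring. Of the 86 named genes that were called, 5 were called without any 1 of the 8 libraries: Krt8, Ccn1, Sfn, Lgals1 and Atp5a1. Of the same 86, 81 lost their call in the fit to the 4 Std libraries, 36 without the trend, 35 with the replicate block, and 0 to 12 under the other settings that keep all libraries. At the estimated depth 1 fragment on 2000 bases was worth 0.19 to 0.23 FPKM, so values near 1 FPKM rest on few fragments. The cause of these changes was not tested.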

Other observations

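In 29 genes that were not tested, a whole Std group was listed at 0 while both libraries of the other stood at 5 FPKM or more. They include genes that every cell uses, such as Rpl30, listed at 0 on LN511 and at 235 and 270 FPKM on gelatin, and Hnrnpa2b1, at 109 and 94 FPKM on LN511 and listed at 0 on gelatin. The imprinted growth factor gene Igf2 was at 12.8 and 9.7 FPKM on LN511 and listed at 0 on gelatin. The authors' gene table gives Igf2 at 17 and 17.6 FPKM on LN511, against 1.26 and 0.88 FPKM on gelatin. Egr1, an immediate early factor, was at 18.2 and 17.5 FPKM on LN511, against 7.52 and 7.45 FPKM on gelatin, and it was set aside because both LN511 2i libraries were listed at 0. The heparan sulfate proteoglycan Hspg2 of basement membranes, also not tested, was at 11.2 and 23.7 FPKM on LN511, against 7.89 and 3.93 FPKM on gelatin.

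Of the 146 called genes that stood in no list, 8 are given here, chosen after their values were seen. The EGF-family ligand Hbegf was at 9.31 and 10.6 FPKM on LN511, against 1.42 and 1.95 FPKM on gelatin, and the urokinase receptor Plaur at 28.4 and 36.9 FPKM on LN511, against 10.8 and 8.96 FPKM on gelatin. The semaphorin Sema3e was at 8.87 and 8.81 FPKM on LN511, against 2.09 and 2.36 FPKM on gelatin. The semaphorin and VEGF co-receptor Nrp2 was at 8.52 and 7.46 FPKM on LN511, against 2.01 and 2.08 FPKM on gelatin. The creatine kinase Ckb was at 92.7 and 90.5 FPKM on LN511, against 28.5 and 31.4 FPKM on gelatin. The iron exporter Slc40a1 was at 8.28 and 8.88 FPKM on LN511, against 1.57 and 1.39 FPKM on gelatin. The heparin-binding growth factor Mdk was lower, at 129 and 142 FPKM on LN511, against 246 and 262 FPKM on gelatin. Thyrotropin-releasing hormone (Trh) was lower, at 46.2 and 37.8 FPKM on LN511, against 116 and 116 FPKM on gelatin.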
